A study of Mus musculus with 8 samples.

Results

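Onecut1 and 7 other transcription factor genes that hold hepatocytes in their differentiated state were followed in mouse liver: Onecut1, Onecut2, Hnf4a, Foxa1, Foxa2, Foxa3, Cebpa and Prox1. They are 8 of the 30627 genes that the array annotation pairs with a probe set of their own. The genes were chosen by earlier results on the same arrays, that is, with their log2 differences between the treatment groups in view. The probe set for a gene was the one with the highest mean signal over all 8 arrays, and each of these 8 genes had only 1. Their differences between groups are therefore a description of these livers, and nothing is supported with them.

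The samples were livers of male C57BL/6 mice, all of them kept on a high fat diet for 13 weeks as a model of hypercholesterolaemia. In 4 mice, 5 injections into the peritoneal cavity delivered anti-miR-128-3p, an inhibitor directed at miR-128-3p, whereas 4 control mice had 5 control injections. Part of the labels describes the control as a vehicle and names miR-128-3p, not its inhibitor, as the agent, whereas titles and design text name the inhibitor, and the groups follow the titles. The sources used here give neither age nor dose, nor what the control injection held. The numbered titles were read as 1 mouse per array, and p-values measure only the spread between these arrays. The inhibitor was given to the whole animal and the whole organ was measured, so that fewer cells of a type and less RNA per cell cannot be told apart.

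Hepatocyte identity rests on a small set of transcription factors that bind one another's genes and the same liver enhancers. The forkhead proteins Foxa1, Foxa2 and Foxa3 bind compacted chromatin and open it, the nuclear receptor Hnf4a keeps a broad set of hepatocyte genes active, and the leucine zipper protein Cebpa drives genes of energy metabolism. Onecut1, also called hepatocyte nuclear factor 6, and its relative Onecut2 are cut-homeodomain proteins needed for bile duct and hepatocyte development. In rat liver, growth hormone stimulates Onecut1. Prox1 is a homeodomain protein of hepatocytes and of lymphatic endothelium that restrains Hnf4a.

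The microRNA that the inhibitor targets has the same mature sequence from both of its genes, chr1:128202404-128202424 on the plus strand and chr9:112118644-112118664 on the minus strand (RefSeq, GRCm38.p6). It is shown here because it defines the treatment, with the seed, bases 2 to 8, in capitals. The level of the mature microRNA was not analysed here.
mmu-miR-128-3p: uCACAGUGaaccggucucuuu

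RefSeq promoter windows were examined for 7 of the 8 genes, and Onecut2 was left out. There were 11 windows in all, since some genes have more than 1 start site. The 250 bases upstream of each start were searched on both strands for 9 motifs. These were the Onecut cores ATTGAT and ATCGAT, the Foxa sites TGTTTAC and TGTTTGC, the Hnf4a element CAAAGTCC, the C/EBP palindrome TTGCGCAA, the Hnf1 palindrome, the STAT palindrome TTCNNNGAA and the Rev-erb and ROR element AGGTCA. Of the 11 windows, 4 held a match and 6 of the motifs had none. Among those 6 were AGGTCA, present in 14% of mouse promoter windows of that length, and TTCNNNGAA, present in 7.02%. The share of all mouse windows that hold any of the 9 motifs was not computed, so nothing is read from the count of 4. An ATTGAT core was present in 6.72% of the 32851 mouse promoter windows of that length. It lay at -213 to -208 upstream of the first Foxa2 start. On the other strand it lay at -59 to -54 upstream of the first Hnf4a start. A TGTTTAC site, present in 3.17% of windows, lay on the other strand at -141 to -135 upstream of Foxa1. A TGTTTGC site, in 4.30% of windows, lay at -120 to -114 of the second Prox1 start. The Onecut1 window held no match to these letters, and a match is a description of sequence, not a binding site. The 4 windows below belong to the 4 genes whose signals shared the same lowest liver, as described further on. Each runs 5′ to 3′ from 250 to 51 bases before the start, with matches in capitals. They lie at chr9:74861671-74861870 on the plus strand for Onecut1 and chr2:148047020-148047219 on the minus strand for Foxa2. The Foxa1 window lies at chr12:57546162-57546361 on the minus strand and that of Hnf4a at chr2:163506607-163506806 on the plus strand. For Foxa2 and Hnf4a only the window of the first start is shown, and their other windows held no match. Which start is used in these livers was not examined.
Onecut1: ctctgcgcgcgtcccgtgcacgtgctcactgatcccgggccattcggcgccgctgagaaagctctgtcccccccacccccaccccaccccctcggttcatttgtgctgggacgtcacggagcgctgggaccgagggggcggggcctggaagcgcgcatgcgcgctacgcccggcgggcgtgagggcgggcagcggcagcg
Foxa2: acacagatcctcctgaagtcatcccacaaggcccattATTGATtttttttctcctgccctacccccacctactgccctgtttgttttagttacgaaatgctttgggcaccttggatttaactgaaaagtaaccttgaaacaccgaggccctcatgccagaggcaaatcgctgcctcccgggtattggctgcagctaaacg
Foxa1: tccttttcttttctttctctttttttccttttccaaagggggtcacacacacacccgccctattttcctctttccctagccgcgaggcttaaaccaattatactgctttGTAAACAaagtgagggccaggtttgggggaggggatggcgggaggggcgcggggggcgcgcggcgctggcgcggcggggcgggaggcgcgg
Hnf4a: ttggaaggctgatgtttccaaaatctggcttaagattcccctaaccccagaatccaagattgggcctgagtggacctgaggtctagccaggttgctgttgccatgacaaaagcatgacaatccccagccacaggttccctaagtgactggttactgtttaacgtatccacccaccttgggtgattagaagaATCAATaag

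The arrays gave RMA signals on a log2 scale, a measure of brightness after background correction, quantile normalization and summary over probes. Median gene signals lay between 5.04 and 5.12 on the 8 arrays, and the medians of the negative controls between 4.32 and 4.48, and the arrays correlated across genes at r = 0.992 to 0.996. All 8 genes were above the median of the negative controls on all 8 arrays. Of 28 hepatocyte products listed, 26 were measured, and all 26 were above that level on at least 1 array. Macrophage and stellate cell markers met the same condition, so it is no check of the tissue label. The number of arrays, 4 per group, limits the precision. No batch or scan time is in the labels used.

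Onecut1 had a signal of 6.71, 7.13, 8.59 and 7.83 in the livers of anti-miR-128-3p mice 1 to 4, against 9.08, 8.87, 9.67 and 9.84 in those of control mice 1 to 4 (log2 RMA signal). Every anti-miR-128-3p liver lay below every control liver, with a gap of 0.28 between the closest livers. The group means were 7.57 ± 0.83 in anti-miR-128-3p livers and 9.37 ± 0.46 in control livers (SD, n = 4 each). The log2 difference, anti-miR-128-3p minus control, was -1.80 ± 0.39 (limma SE), with a 95% interval of -2.68 to -0.91, which is a signal 3.48-fold lower. Of all 30627 genes, 1 had a lower difference, the serpin pseudogene Serpina4-ps1 at -2.41, which is named because of its value. Across all genes Onecut1 did not pass limma with Benjamini-Hochberg adjustment (adjusted p = 0.239). Its livers also spread widely within the anti-miR-128-3p group, over 1.88 log2 units against 0.97 in the control group. The anti-miR-128-3p livers thus ran from the faintest Onecut1 signal of the series, in mouse 1, to a signal near the control range, in mouse 3.

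**Figure D1:**
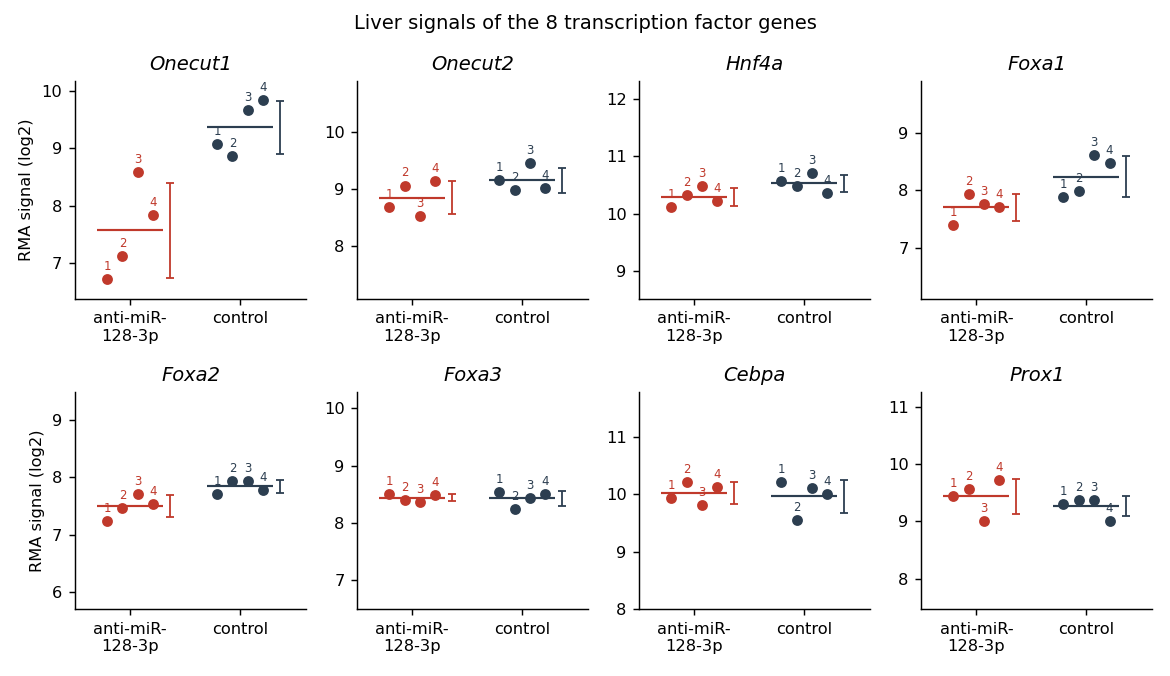
RMA signal (log2) of the 8 genes in each liver, anti-miR-128-3p on the left of each panel and control on the right; points are livers with their mouse number, the horizontal line is the group mean, the bar at its side is 1 SD, and all panels span the same number of log2 units. Onecut1 shows the widest gap between group means, 7.57 against 9.37, while the groups of Foxa3, at 8.44 and 8.43, lie level.

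Its relative Onecut2 differed by much less. Onecut2 stood at 8.68, 9.06, 8.52 and 9.13 in anti-miR-128-3p livers 1 to 4 and at 9.15, 8.98, 9.44 and 9.01 in control livers 1 to 4. The groups overlapped, with 2 of the 4 anti-miR-128-3p livers below the lowest control liver. The log2 difference of Onecut2 was -0.30 ± 0.15 with a 95% interval of -0.65 to 0.05, which includes 0 (limma adjusted p = 0.711). Without anti-miR-128-3p mouse 3 it was -0.19. The signals of different probe sets are not on a common scale, so no level of one gene is set against that of another.

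The 3 Foxa genes gave different pictures. Foxa1 was at 7.40, 7.95, 7.76 and 7.70 in anti-miR-128-3p livers 1 to 4, against 7.89, 7.99, 8.62 and 8.47 in control livers 1 to 4. Only anti-miR-128-3p mouse 2 reached into the control range, and the log2 difference was -0.54 ± 0.18 with an interval of -0.94 to -0.14 (limma adjusted p = 0.504). Foxa2, the forkhead factor that acts earliest in the endoderm, was at 7.24, 7.47, 7.71 and 7.54 in anti-miR-128-3p livers 1 to 4, against 7.72, 7.93, 7.94 and 7.78 in control livers 1 to 4. The groups of Foxa2 did not overlap, but only 0.0096 log2 units lay between the closest livers, and they overlapped once each array was centred on its median. Its log2 difference was -0.35 ± 0.10, with an interval of -0.57 to -0.13 (limma adjusted p = 0.389).

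Foxa3, the family member known mainly from differentiated endoderm, gave a flat picture. It stood at 8.50, 8.40, 8.37 and 8.49 in anti-miR-128-3p livers 1 to 4 and at 8.53, 8.25, 8.44 and 8.50 in control livers 1 to 4. All 4 anti-miR-128-3p livers of Foxa3 fell inside the control range. The log2 difference was 0.01 ± 0.07, with an interval of -0.14 to 0.17 (limma adjusted p = 0.989), and its sign turned with the centring of arrays or the loss of 1 mouse. Whether Foxa3 differed from Foxa1 and Foxa2 in its response was not tested.

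Hnf4a, whose protein binds liver promoters as a homodimer, was at 10.12, 10.32, 10.49 and 10.22 in anti-miR-128-3p livers 1 to 4, against 10.57, 10.49, 10.71 and 10.36 in control livers 1 to 4. Of the 4 anti-miR-128-3p livers, 3 lay below the lowest control liver. The log2 difference was -0.24 ± 0.10, with an interval of -0.46 to -0.02 (limma adjusted p = 0.606). Its antisense transcript Hnf4aos differed by -0.06 ± 0.16 (limma adjusted p = 0.973).

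Cebpa and Prox1 did not share this direction. Cebpa was at 9.94, 10.23, 9.81 and 10.13 in anti-miR-128-3p livers 1 to 4 and at 10.22, 9.56, 10.11 and 10.001 in control livers 1 to 4, with a log2 difference of 0.06 ± 0.14 and an interval of -0.27 to 0.38 (limma adjusted p = 0.973). The lowest Cebpa signal was in control mouse 2, and without that mouse the difference was -0.079. Without anti-miR-128-3p mouse 2 it was -0.0086. Prox1 was at 9.45, 9.57, 9.004 and 9.72 in anti-miR-128-3p livers 1 to 4, against 9.31, 9.37, 9.38 and 9.01 in control livers 1 to 4. Its log2 difference was 0.17 ± 0.15, with an interval of -0.17 to 0.51 (limma adjusted p = 0.858). The Prox1 groups overlapped through anti-miR-128-3p mouse 3, without which the difference was 0.31 and the groups separated, while it was 0.07 without anti-miR-128-3p mouse 4 and 0.08 without control mouse 4.

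Counted together, 5 of the 8 genes were lower in anti-miR-128-3p livers and 3 higher, with a median log2 difference of -0.27, beside -0.0017 over all genes, of which 50.9% were lower. Limma with Benjamini-Hochberg adjustment called 0 of the 8 genes at 0.05, against a background of 0 of 30627 genes (0%), and the smallest adjusted p of any gene was 0.194. Before adjustment, 4 of the 8 had p under 0.05, Onecut1, Foxa2, Foxa1 and Hnf4a, all lower, beside 7.63% of all genes in either direction and 3.37% lower. Groups did not overlap in 2 of the 8, Onecut1 and Foxa2, both lower, beside 4.41% of all genes in either direction, 1.89% lower and 2.52% higher. These genes were chosen with the contrast known, so nothing is read from those shares.

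**Figure D2:**
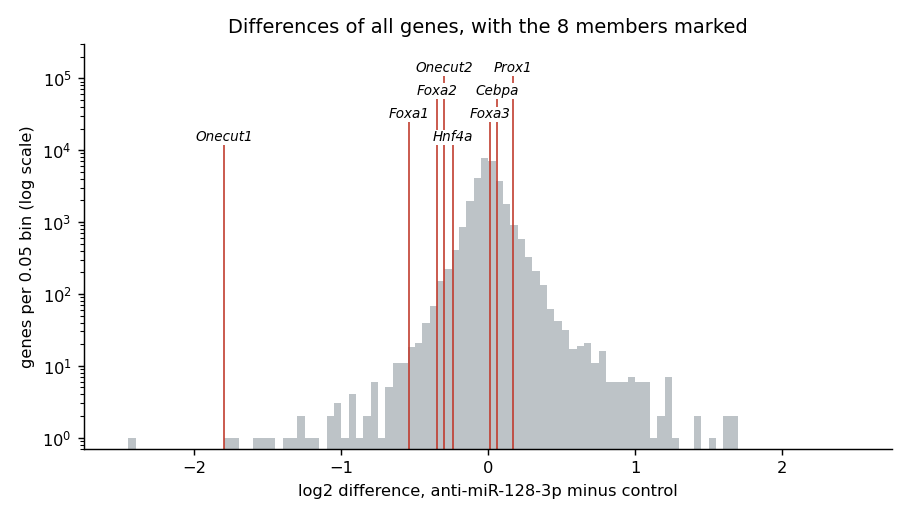
Histogram of the log2 difference, anti-miR-128-3p minus control, over 30627 genes in bins of 0.05 with the number of genes on a log axis; red lines mark the 8 genes. Onecut1 lies at -1.80 in the sparse lower tail, and the other 7 lie between -0.54 and 0.17.

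Several of these genes had their lowest or highest signal in the same liver, which in part follows from the group difference they were chosen for. Anti-miR-128-3p mouse 1 had the lowest signal of all 8 livers for 4 of the 8 genes, Onecut1, Hnf4a, Foxa1 and Foxa2. Control mouse 3 had the highest signal for 4 of the 8, Onecut2, Hnf4a, Foxa1 and Foxa2. Within the anti-miR-128-3p group, mouse 3 was the highest for Onecut1, Hnf4a and Foxa2 but the lowest for Onecut2, Foxa3, Cebpa and Prox1. Averaged over the 8 genes after each gene was centred on its mean, the level was -0.41, -0.15, -0.13 and -0.07 in anti-miR-128-3p livers 1 to 4, against 0.15, 0.02, 0.38 and 0.21 in control livers 1 to 4. The difference of Onecut1 was -1.51 without anti-miR-128-3p mouse 1 and -1.70 without control mouse 3. Without anti-miR-128-3p mouse 1, Foxa1 differed by -0.44, Foxa2 by -0.27 and Hnf4a by -0.19, and without control mouse 3 by -0.41, -0.32 and -0.18 in the same order of genes.

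The mean level of macrophage markers had its extremes in those same 2 livers, anti-miR-128-3p mouse 1 and control mouse 3. Of 14 macrophage and Kupffer cell markers, all measured, 13 were higher in anti-miR-128-3p livers, with a median log2 difference of 0.38, and their mean centred level was highest in anti-miR-128-3p mouse 1, at 0.70, and lowest in control mouse 3, at -0.89. Their summed linear signal ran from 3259.9 to 6669.9 in anti-miR-128-3p livers and from 2018 to 4385 in control livers, and the median difference was 0.14 without control mouse 3, 0.60 without anti-miR-128-3p mouse 2 and 0.58 without control mouse 4. Mpeg1, a pore-forming protein of macrophages, was at 8.67, 8.96, 8.80 and 8.75 in anti-miR-128-3p livers 1 to 4, against 8.68, 7.88, 7.28 and 8.15 in control livers 1 to 4. Like the list mean, Mpeg1 was lowest in control mouse 3. Unlike that mean, it was highest in anti-miR-128-3p mouse 2, and mouse 1 was the lowest of that group. None of the 14 macrophage markers was below the median of the negative controls on all arrays. Their part in the differences of the transcription factor genes was not tested.

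**Figure D3:**
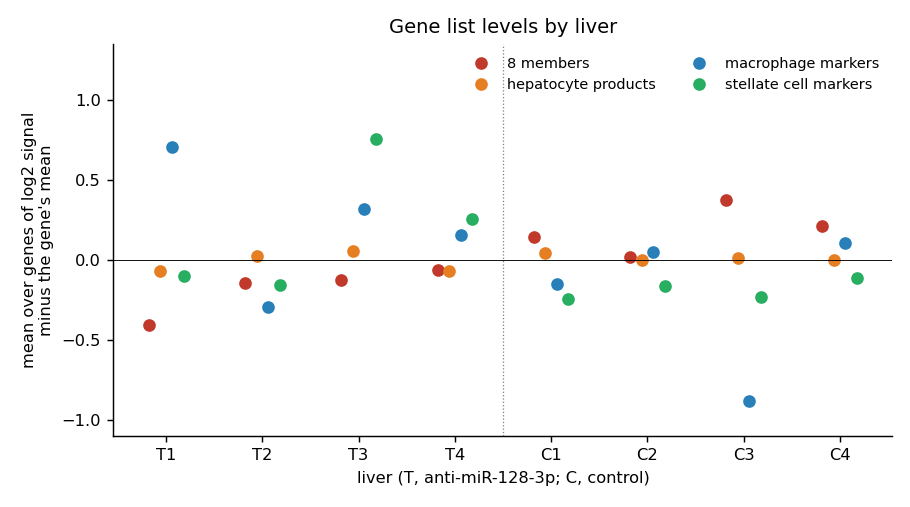
Mean over genes of the log2 signal minus each gene's mean, by liver, for the 8 transcription factor genes, hepatocyte products, macrophage markers and stellate cell markers (T1 to T4, anti-miR-128-3p mice; C1 to C4, control mice). The 8 genes are lowest in T1 (-0.41) and highest in C3 (0.38), macrophage markers are highest in T1 (0.70) and lowest in C3 (-0.89), and hepatocyte products stay between -0.07 and 0.06.

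Stellate cell markers, 14 of 14 measured, were higher in 8 and lower in 6, with a median log2 difference of 0.11. That median was 0.010 without anti-miR-128-3p mouse 3, 0.063 without control mouse 3 and 0.19 without anti-miR-128-3p mouse 1 or 2. Their summed signals were 2612 to 4954 in anti-miR-128-3p livers and 2596 to 2945 in control livers. Of the 14, 6 had an unadjusted limma p under 0.05, beside 7.63% of all genes. Groups did not overlap in 3 that were higher and 1 that was lower, beside 4.41% of all genes. The list was chosen with earlier results known, so nothing is read from those shares. Col1a1, which encodes a fibrillar collagen, was at 8.09, 7.65, 9.96 and 8.68 in anti-miR-128-3p livers 1 to 4 and at 6.99, 7.001, 6.88 and 7.01 in control livers 1 to 4. Its highest liver, anti-miR-128-3p mouse 3, was also the one with the highest Onecut1 signal of that group, and without that mouse the Onecut1 difference was -2.14. Sinusoidal endothelial markers were lower in 11 of 12, with a median of -0.25 (-0.16 without control mouse 2) and summed signals of 2586 to 3523 in anti-miR-128-3p livers and 2808 to 4175 in control livers. The groups overlapped for all 12, and 3 of them had an unadjusted limma p under 0.05, beside 7.63% of all genes. The lectin gene Clec4g, a marker of these endothelial cells, differed by -0.53 ± 0.19 (limma adjusted p = 0.552).

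Cells in which Onecut1, Onecut2 or Prox1 are also known were examined for the same reason. Bile duct cells express Onecut1 and Onecut2, and of 16 bile duct markers 13 were measured, 6 of them higher and 7 lower, with a median log2 difference of -0.01. The bile duct markers Epcam, Cftr, Prom1 and Ehf were below the median of the negative controls on all 8 arrays, and the summed signal was 547 to 651 in anti-miR-128-3p livers and 553 to 648 in control livers. Bicc1, an RNA-binding protein of bile duct and kidney epithelium, differed by 0.29 ± 0.10 (limma adjusted p = 0.550). Of 8 lymphatic endothelial markers, which bear on Prox1, 7 were measured, 4 higher and 3 lower, with a median of 0.0052 and Mmrn1 below the negative controls. Among the 7, Reln was also on the stellate list and Lyve1 on the sinusoidal endothelial list. The groups overlapped for all 7, and 3 of them had an unadjusted limma p under 0.05, beside 7.63% of all genes. The summed signal of the 7 was 723 to 869 in anti-miR-128-3p livers and 787 to 974 in control livers. The part of bile duct and lymphatic cells in the differences was not tested.

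Neutrophil markers summed to 243 to 300.3 in anti-miR-128-3p livers and 247 to 1099.9 in control livers, the highest being control mouse 1, and 9 of 10 were lower, with a median of -0.31. Without control mouse 1 that median was 0.07, and the Onecut1 difference was -1.89. Lymphocyte markers, 9 of 10 measured, were higher in 6 and lower in 3, with a median of 0.04, summed signals of 279.6 to 325 in anti-miR-128-3p livers and 261 to 423 in control livers, and Ms4a1, Klrb1c and Ncr1 below the negative controls on all arrays. The part of neutrophils and lymphocytes in the differences was not tested.

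Hepatocyte products, the secreted proteins and enzymes whose genes these factors bind, showed no common shift. Of 28 listed, 26 were measured, 12 higher and 14 lower, with a median log2 difference of -0.0048 and a range of -0.28 to 0.12. Limma called 0 of the 26 over all genes, and 1 had an unadjusted p under 0.05, beside 7.63% of all genes. It was Asgr2, a subunit of the asialoglycoprotein receptor, at -0.28 ± 0.11 (limma adjusted p = 0.585). Its partner subunit Asgr1 differed by -0.14 ± 0.07 (-0.09 without anti-miR-128-3p mouse 1). The lipoprotein gene Apob differed by -0.11 ± 0.05. That was -0.035 with a further quantile normalization and -0.07 without anti-miR-128-3p mouse 4. Ambp, the precursor of alpha-1-microglobulin and bikunin, differed by 0.11 ± 0.05. The summed linear signal of the 26 ran from 179109 to 194134 in anti-miR-128-3p livers and from 180928 to 188329 in control livers, so the control range lay inside the other. Genes of the pericentral zone, 10 of 12 measured, were lower in 8 and higher in 2 with a median of -0.03, though only 5 were lower without anti-miR-128-3p mouse 3 or without control mouse 3, and periportal genes, 8 of 12 measured, were lower in 5 and higher in 3 with a median of -0.07. Fetal liver genes, 10 of 12 measured, were higher in 4 and lower in 6, with a median of -0.03. Afp, the fetal counterpart of albumin, was below the negative controls on all arrays, as were Igf2bp3 and Lin28b. Limma called 0 genes in any of these lists, and none of the pericentral, periportal and fetal genes had an unadjusted p under 0.05.

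Among 25 other transcription factors of liver, 21 were measured, 15 lower and 6 higher in anti-miR-128-3p livers, with a median log2 difference of -0.05. That median ran, over the arrays left out, from -0.12 without anti-miR-128-3p mouse 4 to -0.025 without control mouse 3, with -0.10 without anti-miR-128-3p mouse 2 or control mouse 4. Limma called 0 of the 21 over all genes, and 6 had an unadjusted p under 0.05, beside 7.63% of all genes. Groups did not overlap in 3 of the 21, all lower, beside 4.41% of all genes in either direction and 1.89% lower. These shares are given as a description of lists chosen with earlier results known. Creb3l3, a membrane-bound factor of lipid and acute phase genes, was at 9.04, 9.24, 9.16 and 9.26 in anti-miR-128-3p livers 1 to 4 and at 9.49, 9.32, 9.48 and 9.38 in control livers 1 to 4. All 4 anti-miR-128-3p livers were below the controls, by a mean of -0.24 ± 0.06 (limma adjusted p = 0.346). Gata4, a zinc finger factor of hepatic and endothelial development, was at 6.52, 6.75, 6.58 and 6.71 in anti-miR-128-3p livers 1 to 4. In control livers 1 to 4 it was at 6.76, 6.99, 6.92 and 7.13. The difference of Gata4 was -0.31 ± 0.08 (limma adjusted p = 0.364). Only 0.019 log2 units lay between its closest livers, and its groups overlapped once each array was centred on its median.

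The third, Nr0b2, an orphan receptor that represses other nuclear receptors, was at 8.92, 8.89, 8.88 and 7.75 in anti-miR-128-3p livers 1 to 4 and at 9.38, 9.26, 9.84 and 9.02 in control livers 1 to 4. The difference of Nr0b2 was -0.76 ± 0.28 (limma adjusted p = 0.563) and -0.48 without anti-miR-128-3p mouse 4. Xbp1, the factor of the unfolded protein response, differed by -0.54 ± 0.17 with overlapping groups (limma adjusted p = 0.481). The plot of differences by gene sets these beside the 8 genes.

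**Figure D4:**
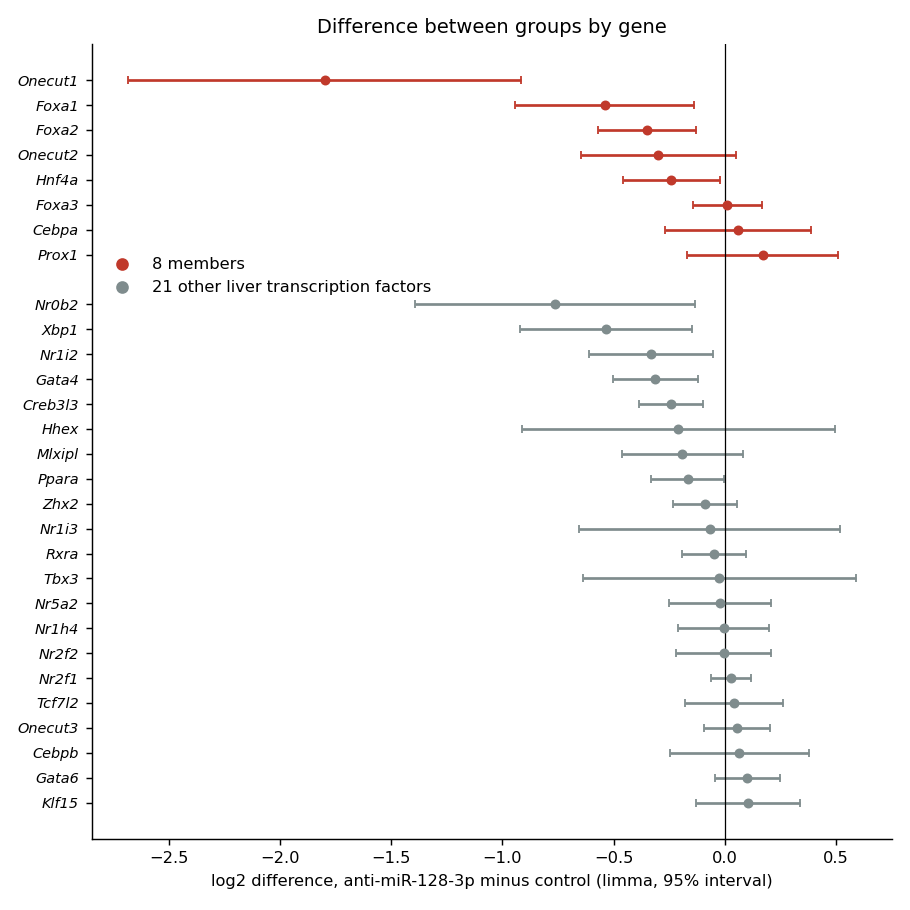
Log2 difference, anti-miR-128-3p minus control, with the 95% interval of limma, for the 8 genes (red, upper block) and 21 other liver transcription factors (grey, lower block). Onecut1 at -1.80 has an interval of -2.68 to -0.91; among the others Nr0b2 at -0.76 lies lowest.

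Genes tied to Onecut1 in liver, its co-regulators and genes it is known to bind, were listed to ask whether they moved with it. Of 15 listed, 12 were measured, 5 higher and 7 lower, with a median log2 difference of -0.02, and limma called 0 over all genes, with 2 at an unadjusted p under 0.05, beside 7.63% of all genes. Those were Cyp7a1 and Slc2a2. Cyp7a1, which controls the rate at which bile acids are made, was at 11.21, 10.82, 10.31 and 11.24 in anti-miR-128-3p livers 1 to 4 and at 8.92, 8.42, 10.19 and 10.37 in control livers 1 to 4. Only anti-miR-128-3p mouse 3 reached into the control range of Cyp7a1, and the difference was 1.42 ± 0.43 (limma adjusted p = 0.460), opposite in sign to that of Onecut1. Slc2a2, the glucose transporter of hepatocytes, differed by -0.33 ± 0.14 (limma adjusted p = 0.634). Pck1, a gluconeogenic enzyme, differed by 0.11 ± 0.10 and Crebbp, the acetyltransferase that partners Onecut1, by 0.05 ± 0.05, both with overlapping groups. Over the arrays left out, Pck1 ran from 0.04 to 0.18 and Crebbp from 0.03 to 0.08. The groups overlapped for all 12 genes of this list.

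The genes most like Onecut1 over the 8 livers were sought among 11082 other protein-coding genes at or above the median signal, by the mean absolute difference between centred log2 signals. The closest was Slc25a30, a mitochondrial carrier, at a mean distance of 0.40 log2 units, followed by Alas1 at 0.45, Cish at 0.50, Cd207 at 0.52 and Plk3 at 0.55. Since these genes were picked for a pattern that follows the groups, their differences are descriptions. Slc25a30 was at 7.67, 7.49, 8.27 and 7.75 in anti-miR-128-3p livers 1 to 4 and at 8.54, 8.78, 8.90 and 9.99 in control livers 1 to 4, a difference of -1.26.

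Alas1, the first enzyme of haem synthesis, was at 8.56, 9.45, 10.66 and 9.97 in anti-miR-128-3p livers 1 to 4 and at 10.42, 10.08, 10.95 and 10.81 in control livers 1 to 4. As with Onecut1, the lowest liver was anti-miR-128-3p mouse 1 and the highest of that group was mouse 3. Its difference of -0.91 was -0.54 without anti-miR-128-3p mouse 1. Cish, a cytokine-induced inhibitor of STAT5 signalling, was at 6.71, 6.33, 7.19 and 6.89 in anti-miR-128-3p livers 1 to 4 and at 7.47, 8.24, 7.73 and 8.46 in control livers 1 to 4, without overlap and with a difference of -1.20. Cd207, the langerin gene of Langerhans and other dendritic cells, differed by -1.22 and Plk3, a stress-responsive kinase, by -0.78. Both were also lowest in anti-miR-128-3p mouse 1.

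The nearest mirror images were Nipal1, a magnesium transporter, at a mean distance of 0.48, Bcl6, a transcriptional repressor, at 0.55, and Timd4, a phosphatidylserine receptor of Kupffer cells, at 0.60. Bcl6 was at 8.19, 9.20, 7.12 and 8.48 in anti-miR-128-3p livers 1 to 4 and at 6.38, 7.58, 7.24 and 6.81 in control livers 1 to 4. Its lowest anti-miR-128-3p liver, mouse 3, was the one in which Onecut1 was highest in that group. The differences of Nipal1, Bcl6 and Timd4 were 0.89, 1.24 and 0.69, and that of Timd4 was 0.39 without anti-miR-128-3p mouse 1.

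**Figure D5:**
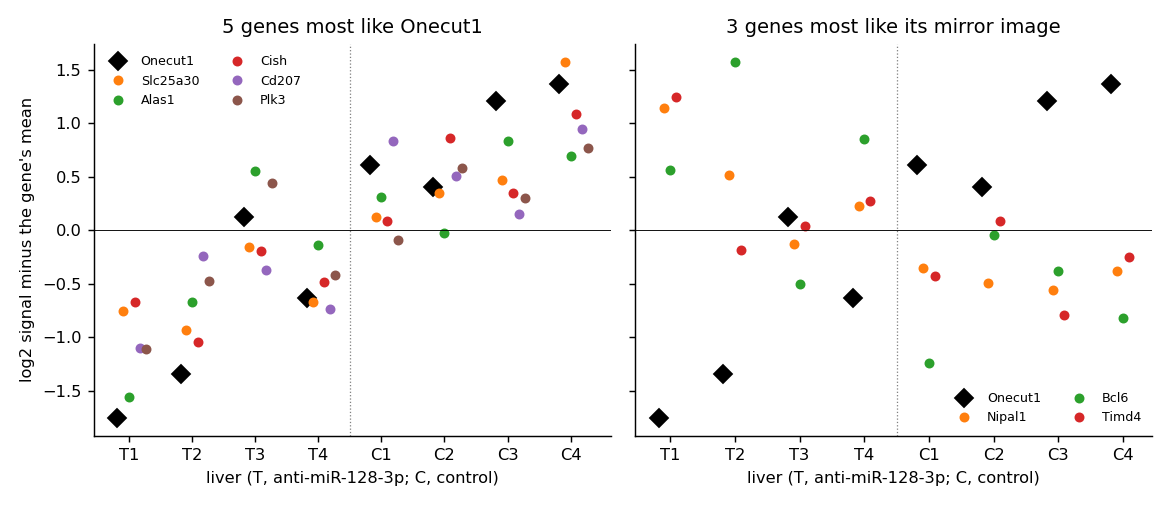
Log2 signal minus the gene's mean in each liver (T1 to T4, anti-miR-128-3p mice; C1 to C4, control mice) for Onecut1 (black diamonds) with the 5 genes most like it on the left and the 3 most like its mirror image on the right. On the left, Alas1, Cd207 and Plk3 share the lowest liver, T1, with Onecut1, while Slc25a30 and Cish are lowest in T2. On the right, Bcl6 is lowest of the anti-miR-128-3p livers in T3, where Onecut1 is highest of that group.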

How the data were processed

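The deposited table holds log2 signals of 8 liver arrays, made with RMA per the submitters' processing notes. The sources used here do not give its version, the annotation build or any filter. Of 72688 rows, 6732 array controls were set aside and 65956 probe sets kept. The platform annotation lists 32750 of these. The 31080 probe sets that name exactly 1 gene, after symbols were updated through Entrez IDs against RefSeq (GRCm38.p6, names only), gave 30627 genes, each represented by its brightest probe set over all arrays. Listed genes without such a probe set were not analysed here.

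Groups were compared with limma 3.58.1 (R 4.3.3, functions lmFit and eBayes, two-sided, no covariate, no filter, all 8 arrays), with Benjamini-Hochberg adjustment over all 30627 genes at 0.05. The fit was also run on simulated data with independent noise for each gene. Its outcome is not given here and says nothing of noise shared between genes. Errors are limma's SE, and groups are said not to overlap when all 4 values of one lie beyond all 4 of the other. The 8 genes and all 15 gene lists were chosen with earlier results of these data known. Genes are named by a rule: the 8 genes, up to 4 per list by smallest p, the non-overlapping genes of the 2 lists of regulators, 5 genes most like Onecut1 and 3 most like its mirror image. Alternatives were trend and robust moderation, array weights, a filter at the median signal, the mean of probe sets and every probe set. Others were centring on array medians, the replicate number as a block, other thresholds and leaving out each array. A further quantile normalization, over the 31080 probe sets that name 1 gene, was applied on top of that of RMA. Same-numbered mice did not deviate together (r = -0.15 to -0.04 over 15314 genes), so the numbers were not taken as pairs. Sequences are RefSeq's. Python 3.11.15, pandas 2.3.3 and matplotlib 3.10.9 were used for tables and plots.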

Additional observations from a re-analysis of the deposited data

Results flagged for a closer look

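In 64 groups of 4 livers, 1 for each of 32 genes named above in each treatment, 4 held a liver far from the other 3, and chance flags about 1 in 20 groups. Nr0b2 stood at 7.75 in anti-miR-128-3p mouse 4, with the other 3 between 8.88 and 8.92. Col1a1 stood at 6.88 in control mouse 3, with the others between 6.99 and 7.01. Crebbp stood at 9.40 in control mouse 3, with the others between 9.33 and 9.34, and Bicc1 at 6.08 in control mouse 2, with the others between 5.82 and 5.86. None of the 8 transcription factor genes held such a liver in either group.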

How the results depend on the processing

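Onecut1 kept its direction under all 16 alternatives, with limma adjusted p of 0.183 to 0.542. Its log2 differences were -2.14 to -1.51 over the arrays left out and -1.81 to -1.80 otherwise. Its groups stayed apart with the further quantile normalization and with arrays centred on their medians. The other alternatives could not have made its groups overlap, since they kept its values or only removed a liver. Onecut2, Hnf4a, Foxa1, Foxa2 and Prox1 also kept their direction under all 16. With arrays centred on their medians, Foxa3 differed by -0.0010 and 1 of the 8 genes did not overlap. Over the arrays left out, Foxa3 ran from -0.050 to 0.045, Cebpa from -0.079 to 0.14 and the count of the 8 without overlap from 2 to 4, the highest without anti-miR-128-3p mouse 3 (Onecut1, Hnf4a, Foxa2 and Prox1). Leaving out an array cannot lower that count. At an adjusted p of 0.05, limma called 0 genes under all alternatives except 1, Irgm1 (adjusted p = 0.0375), without control mouse 4, so the count ran from 0 to 1. The threshold of 0.1 was applied to the main fit only, where it called 0 genes. There were 2337 genes at an unadjusted p under 0.05. Taking the replicate number as a block cannot change group means or overlap. With it, Onecut1 stayed at -1.80 with an adjusted p of 0.463, 0 genes were called and 2 of the 8 genes did not overlap. The cause of these shifts was not tested. With the further quantile normalization, 9 of the 26 hepatocyte products were lower in place of 14, with a median of 0.02 in place of -0.0048. No detection call accompanies the signals, so nothing is said of genes near the negative controls beyond their level. Over the arrays left out, list medians near 0 ran from -0.04 to 0.06 for Onecut1 partners and targets, -0.03 to 0.0050 for hepatocyte products, -0.09 to 0.0036 for pericentral genes, -0.11 to -0.04 for periportal genes, -0.04 to 0.04 for bile duct markers, -0.04 to -0.01 for fetal genes, -0.02 to 0.05 for lymphatic markers and 0.0013 to 0.12 for lymphocyte markers.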
